A study of Mus musculus with 6 samples.

Results

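The 62 nuclear genes described here encode subunits and assembly factors of respiratory complexes II, III, IV and V and the electron carrier cytochrome c. They were chosen by symbol from the 55401 genes of the expression table (Sdh, Sdhaf, Uqcr, Uqcc, Cyc1, Cycs, the nuclear Cox genes, Surf1, Sco and Atp5 symbols). Pseudogene names were left out, and a level of at least 1 TPM (transcripts per length, scaled to a common library total) in 3 or more of the 6 libraries was required. Of the 70 matching genes, 62 met that minimum, and over all genes 14209 did. Of the members, 8 belong to complex II, 12 to complex III, 24 to complex IV, 17 to complex V, and 1 is Cycs, the somatic cytochrome c. By role, 42 are subunits and 19 are assembly factors.

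The libraries were made from poly(A) RNA of NIH-3T3, a mouse embryonic fibroblast line kept in medium with serum. There were 3 libraries of the line with the genotype WT and 3 of its derivative NIH-3T3-MU with the genotype given as Mutation, called MU here. Both groups carry the same treatment label, and the labels give neither the mutated gene nor whether MU is a single clone. MU is compared with WT. The study's title speaks of infidelity of mitochondrial translation.

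Complex II, succinate dehydrogenase, feeds electrons from the citric acid cycle into the ubiquinone pool and is encoded wholly in the nucleus. Complex III passes them to cytochrome c, complex IV (cytochrome c oxidase) passes them on to oxygen, and complex V (ATP synthase) uses the resulting proton gradient to make ATP. Complexes III, IV and V join nuclear subunits to core subunits made inside mitochondria from mtDNA, and complex IV in particular depends on dedicated factors that insert its copper and heme and fold its mtDNA-encoded core.

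Depth is unknown, because TPM keeps no library total. Of the WT libraries, replicates 2 and 3 stood apart from each other: across the 14209 tested genes, a gene's deviation in WT replicate 2 rose with its GC content (Spearman 0.33, a description across genes) and in WT replicate 3 fell with it (-0.25), against values between -0.12 and 0.17 in the other 4 libraries. All 10 fibroblast markers were above the minimum, with a summed level of 8964 to 10241 TPM in WT and 11492 to 12007 TPM in MU. Of 11 striated muscle markers, 4 were listed at 0 in all libraries (Myh6, Myod1, Myog and Tnni3), and the sum was 2.64 to 5.28 TPM in WT and 5.32 to 6.84 TPM in MU. In bulk RNA, more cells of a type and more RNA per cell cannot be told apart. Epithelial markers summed to at most 0.666 TPM, adipocyte markers to at most 0.629 TPM, and leukocyte and endothelial markers to at most 6.45 TPM. In that last list 2 markers met the minimum and differed in direction. The mean of Cdh5 was 1.82 TPM in WT against 0.105 TPM in MU, and that of Cd68 was 2.56 TPM against 4.47 TPM. Whether replicates were separate cultures is not in the labels, and p-values therefore rest on a spread between libraries that may be technical.

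Of the 62 genes, 8 differed between MU and WT, in both directions. In MU, the complex IV assembly factors Cox20 and Cox16 rose. Cox11 (also complex IV assembly), Sdhd (complex II), Uqcrfs1 (complex III) and Atp5a1, Atp5g3 and Atp5pb (complex V) fell. These 8 genes, 12.9% of the members, passed limma's moderated test at a Benjamini-Hochberg adjusted p under 0.05, against 18.8% of all 14209 genes. By direction, 2 of 62 rose against a background of 7.12%, and 6 of 62 fell against a background of 11.6%. Over all genes 37.9% of the calls were higher, and this share depended on scaling: it was 48.5% with TPM rescaled without mtDNA genes, 48.3% under median-of-ratios scaling and 48.8% under quantile normalization. With those scalings, 3, 5 and 8 members were called higher and 1, 2 and 0 lower.

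The median log2 fold change of the members was -0.02, beside -0.05 over all tested genes. Members were abundant, with a median level of 163 TPM. Among tested genes averaging 50 TPM or more, the median log2 fold change was lower, at -0.12. The log2 fold change was above 0 for 28 members and below 0 for 34. For 57 of 62 members the 95% interval of the log2 fold change lay within 1 of 0, which leaves out a change by a factor of 2 (on the log2(TPM + 1) scale) in either direction. The same held for 74.1% of all genes, a background not matched to the members in level. The 3 MU libraries lay wholly above the 3 WT libraries in 11 members (background 16.1%) and wholly below in 11 (background 23.0%). The counts depended on which library was left out: there were 2 higher and 1 lower without WT replicate 1, 3 and 6 without WT replicate 2, 6 and 1 without WT replicate 3, and 1 and 0 without any 1 MU library. Of the 6 genes that fell, 5 were still called without WT replicate 2 (Sdhd had a limma adjusted p of 0.0537), 1 without WT replicate 1 (Sdhd), 1 without WT replicate 3 (Atp5pb) and 0 when any 1 MU library was left out.

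**Figure D1:**
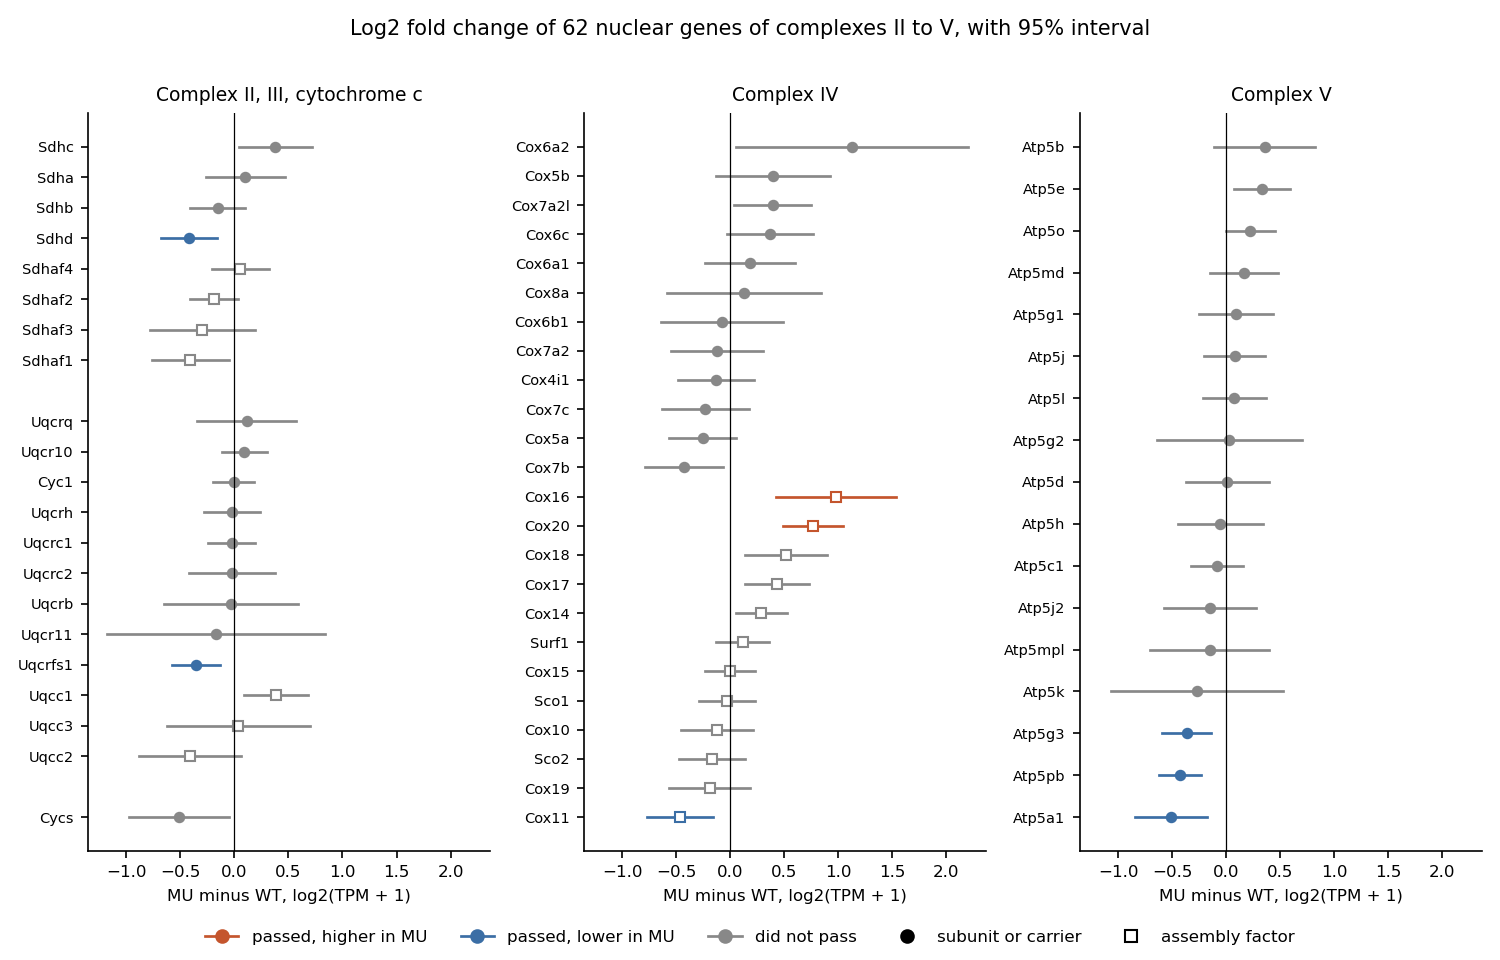
Each point is the log2 fold change of 1 gene (MU minus WT on the log2(TPM + 1) scale, x axis) with its 95% interval from limma, in a panel per complex; filled circles are subunits or cytochrome c and open squares are assembly factors. The 2 genes that rose are both complex IV assembly factors, 5 of the 6 that fell are subunits, and most intervals cross 0.

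Complex IV assembly factors held both rises. Cox20, a chaperone of the newly made mtDNA-encoded subunit COX2, lies at chr1:178319130-178322693 (mm10, plus strand). Cox16, which also acts in the maturation of COX2, lies at chr12:81359026-81485127 on the minus strand. Cox11, at chr11:90638173-90644931 on the plus strand, helps to insert copper into COX1. The 150 bases before the RefSeq start of each (GRCm38.p6, the assembly of mm10) are printed because these are the only 3 assembly factors that passed. Capitals mark 3 of the words searched on both strands: CCGGAAG, bound by ETS-family factors such as GABP, AAGATGGC, bound by YY1, and TCGCGAGA, a word of CG-rich promoters. The first base of the annotated gene in GENCODE M21 lies up to 23 bases from the RefSeq start in these genes.

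Cox20, chr1:178319003-178319152, plus strand: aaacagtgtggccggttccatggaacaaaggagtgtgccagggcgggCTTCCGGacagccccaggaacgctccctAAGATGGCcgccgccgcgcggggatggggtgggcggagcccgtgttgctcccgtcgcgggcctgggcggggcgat
Cox16, chr12:81485138-81485287, minus strand: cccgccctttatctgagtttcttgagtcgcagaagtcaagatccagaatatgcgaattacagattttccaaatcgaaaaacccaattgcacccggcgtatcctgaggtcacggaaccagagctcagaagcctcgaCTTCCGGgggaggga
Cox11, chr11:90638034-90638183, plus strand: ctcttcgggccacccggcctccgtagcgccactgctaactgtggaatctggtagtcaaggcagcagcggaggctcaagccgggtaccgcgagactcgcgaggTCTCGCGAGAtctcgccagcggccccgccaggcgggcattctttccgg

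In Cox20 the ETS word begins 103 bases and the YY1 word 75 bases before the start. In Cox16 an ETS word lies 15 bases before it. Cox11 has neither in its printed stretch and holds TCGCGAGA on both strands, overlapping, from 48 bases before the start. Both genes that rose hold an ETS word, as do Sdhd, which fell, and many members that did not pass: of the 50 members with a RefSeq promoter entry (250 bases before to 50 after the start), 22 hold it, or 44%. It is in 8.86% of all 32817 promoters and in 19.8% of the 9055 promoters of tested coding genes. The NRF1 word GCGCATGC, which can overlap itself on the other strand, was found in 8 of 50, or 16%, against 2.71% of all promoters and 5.86% of those of tested coding genes. These 8 are Atp5g2, Atp5k, Atp5l, Cox6a1, Cycs, Sdhb, Uqcr11 and Uqcrc1, none of which passed the test. Of all 50 members with a promoter entry, 7 passed, so 8 genes are too few to read a difference from. The YY1 word was in 5 of 50 (Atp5j2, Atp5pb, Cox10, Cox20 and Uqcc2), or 10%, against 2.74% and 5.14%. TCGCGAGA, searched for after these sequences had been seen, was in Atp5pb, Cox11 and Cox7b among the 50, or 6%, against 0.993% and 2.56%. Of general promoter words, the GC box GGGCGG was in 56% of the 50, against 66.8% of the promoters of tested coding genes. The word CCAAT was in 48% against 40.3%. For the TATA box (TATAAA) the shares were 8% against 6.62%. A match describes the letters of the window and says nothing on binding.

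Cox20 stood at 31.4, 34.3 and 28.2 TPM in WT and at 49.5, 60.6 and 51.3 TPM in MU. The lowest MU library was well above the highest WT library. Its mean was 1.72 times higher, with a log2 fold change of 0.76 (95% interval 0.48 to 1.04, limma adjusted p = 0.00738). Of the 8 genes called, Cox20 was the only one that passed under every one of the 19 other settings tried, with adjusted p-values from limma or, for 1 setting, the authors' table between 0.00235 and 0.035. Its 3' end overlaps Hnrnpu on the opposite strand over 1586 bases, and Hnrnpu itself had a mean of 450 TPM in WT against 406 TPM in MU. Around Cox20 on chromosome 1, neighbouring genes had a median log2 fold change 0.19 above that of all genes. After centring on these neighbours, Cox20 was at 0.57.

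Cox16 stood at 37.2, 24.1 and 48.3 TPM in WT and at 71.1, 66.1 and 73.3 TPM in MU. The groups did not overlap, although WT varied widely, with replicate 2 lowest and replicate 3 highest. The log2 fold change was 0.98 (95% interval 0.42 to 1.53, limma adjusted p = 0.0315). Its value is uncertain: the whole gene lies inside the annotated span of Gm20498, a protein-coding gene on the same strand, which went from a mean of 43.3 to 32.1 TPM, and how reads in shared exons were assigned is not stated. Its call was lost without any 1 of WT replicate 1 or MU replicates 1, 2 or 3 (adjusted p 0.085 to 0.103, limma), without a filter on low values (0.0837), and under centring on neighbouring genes (0.0506).

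Cox11 stood at 22.7, 19.2 and 24.2 TPM in WT and at 17.4, 14.0 and 15.6 TPM in MU. All MU libraries were below all WT libraries. Its log2 fold change was -0.47 (95% interval -0.77 to -0.16, limma adjusted p = 0.0477), just under the threshold, and the call held under only 6 of the 19 other settings. Cox11 overlaps Tom1l1 on the opposite strand over 1467 bases. The library kit marks the strand, but no source used here says whether counting used it, so reads of overlapping partners could not be told apart with certainty.

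Of the 12 complex IV assembly factors, 5 had all MU libraries above all WT libraries, as did 16.1% of all tested genes: Cox20, Cox16, Cox17, Cox18 and Cox14, the last 3 chosen after their values were seen. Cox17, the copper chaperone that supplies the Sco proteins and Cox11, stood at 48.1, 52.3 and 59.7 TPM in WT and 75.4, 63.0 and 79.2 TPM in MU (log2 fold change 0.43, limma adjusted p = 0.0546). Cox18, the insertase for COX2, stood at 37.1, 23.7 and 28.9 TPM in WT and 42.0, 42.6 and 42.5 TPM in MU (0.51, adjusted p = 0.0695). Cox14, which acts on newly made COX1, stood at 25.9, 26.9 and 28.5 TPM in WT and 30.0, 34.8 and 35.1 TPM in MU (0.29, adjusted p = 0.0898). None of these 3 passed here. Cox17 passed under 8 and Cox18 under 5 of the 19 other settings, the authors' deposited table among them in both cases, and Cox14 under 1.

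The other 6 assembly factors of complex IV overlapped between groups. They are the copper metallochaperones Sco1 and Sco2 and the copper protein Cox19, the heme A synthesis enzymes Cox10 and Cox15, and Surf1. Their log2 fold changes ran from -0.19 (Cox19) to 0.11 (Surf1). Over the 12 factors the median log2 fold change was 0.06, with 6 means higher and 6 lower. Summed over the 12 genes, the level was 305 ± 17.7 TPM in WT against 387 ± 11.7 TPM in MU (mean ± SD, n = 3 each), a ratio of 1.27, with 286 to 321 TPM in WT against 377 to 400.3 TPM in MU. Within this sum, the mean of Cox16 went from 36.5 to 70.2 TPM and that of Cox20 from 31.3 to 53.8 TPM.

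**Figure D2:**
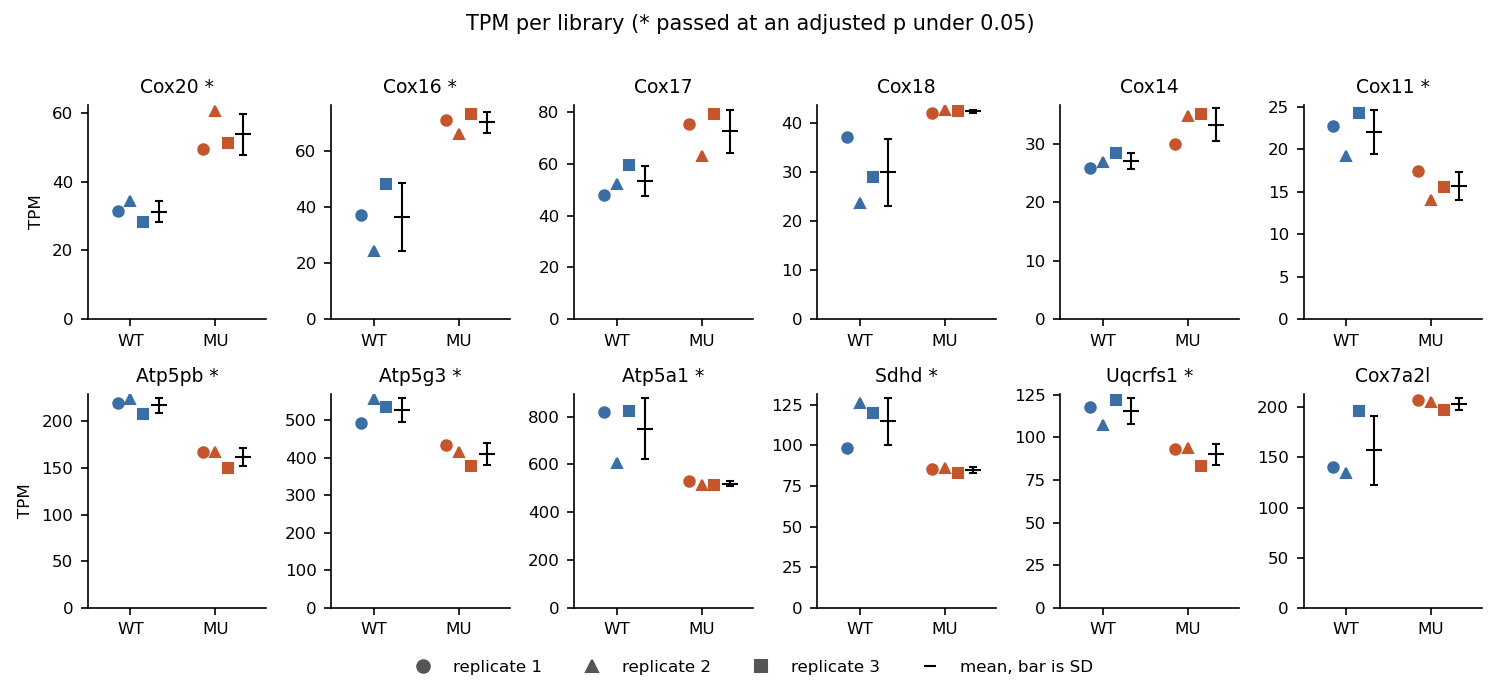
TPM of 12 genes in each library (y axis from 0; circle, triangle and square are replicates 1, 2 and 3; the bar is the mean with its SD), with an asterisk on genes that passed. Cox20, Cox16, Cox17, Cox18 and Cox14 are higher in all MU libraries, while Cox11, Atp5pb, Atp5g3, Atp5a1, Sdhd and Uqcrfs1 are lower in all of them.

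None of the 12 nuclear subunits of complex IV passed limma, against 18.8% of all genes. The direction was mixed, with 6 means higher and 6 lower. At an unadjusted p under 0.05, 2 were higher (Cox6a2 and Cox7a2l) and 1 lower (Cox7b). The share of all genes at that cut, used again below, was not computed. The authors' deposited table called 1 of the 12 subunits, Cox7a2l. The most abundant was Cox6c, at 748 ± 172 TPM in WT against 951 ± 49.6 TPM in MU (mean ± SD, n = 3; log2 fold change 0.37, limma adjusted p = 0.174). This gene passed only without WT replicate 3 (0.55, adjusted p = 0.0136), the library in which it stood at 946 TPM against 636 and 660 TPM in the other WT libraries. The largest negative difference among the subunits was that of Cox7b, an X-linked subunit, which stood at 170, 161 and 229 TPM in WT and 152, 130 and 131 TPM in MU (-0.43, adjusted p = 0.0987). Protein-coding genes of chromosome X had a median log2 fold change of -0.25, and after centring on neighbouring genes the value for Cox7b was 0.16. Cox7b was called lower under 1 of the 19 other settings, the GC and length correction (limma adjusted p = 0.0394). Cox5a was also below WT in every MU library (-0.25, adjusted p = 0.226). Cox5b, Cox6a1, Cox8a, Cox6b1, Cox4i1 and Cox7c overlapped between groups, with log2 fold changes from -0.23 (Cox7c) to 0.39 (Cox5b).

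Several subunits of complex IV exist as isoforms of different tissues. In these fibroblasts the ubiquitous forms made up nearly all of each family: Cox4i1 at least 99.9% of Cox4, Cox6a1 at least 98.8% of Cox6a, and Cox6b1 all of Cox6b in every library. Cox6a2, the heart and skeletal muscle form of Cox6a, stood at 0.504, 3.63 and 2.79 TPM in WT and 5.76, 7.50 and 3.78 TPM in MU. The groups did not overlap, but the levels were low and varied widely (log2 fold change 1.13, 95% interval 0.06 to 2.20, limma adjusted p = 0.133). Cox6a2 overlaps Itgad on the opposite strand over 953 bases, and Itgad went from a mean of 1.71 to 3.47 TPM, whose part in this result was not tested. The share of Cox6a2 in Cox6a was 0.365% in WT and 0.874% in MU, with overlapping ranges. Summed striated muscle markers, at or below 6.84 TPM in every library, were also higher in all MU libraries, and their part was likewise not tested. The highest WT sum was 5.28 TPM and the lowest MU sum 5.32 TPM. Only 1 of the 11 markers, Tnnt2, met the TPM minimum, with a mean of 1.92 TPM in WT against 3.99 TPM in MU. Means of the others differed in both directions.

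Of the complex IV families with more than 1 form above the TPM minimum, Cox6a and Cox7a, the Cox7a family differed in composition without overlap. Cox7a2l, a Cox7a-related protein that joins complexes III and IV into supercomplexes, made up 29.4, 31.9 and 30.2% of the summed Cox7a level in WT and 36.8, 38.7 and 40.3% in MU. Cox7a2, the form built into complex IV of most tissues, took 69.4 ± 1.42% in WT against 61.2 ± 1.69% in MU (mean ± SD, n = 3). In level, Cox7a2l stood at 140, 134 and 196 TPM in WT and 207, 206 and 197 TPM in MU, and Cox7a2 overlapped between groups. The difference in Cox7a2l did not pass limma (0.39, adjusted p = 0.122). It passed under 2 of the 19 other settings: without WT replicate 3 (0.56, adjusted p = 0.00889) and in the authors' deposited table (0.41, adjusted p = 0.0332), higher in both. Genes around Cox7a2l on chromosome 17 were also higher in MU, with a median 0.20 above that of all genes. Centring on them gave Cox7a2l a value of 0.19. The third member, the muscle form Cox7a1, was at most 0.28% of the family in any library.

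Complex V had 3 genes that fell and none that rose among 17 by limma, while under quantile normalization none fell and Atp5e rose. The share called, 17.6%, was near the 18.8% of all genes. At an unadjusted p under 0.05, Atp5e was the 1 higher gene, and the authors' deposited table called 0 higher and 2 lower. Atp5pb encodes subunit b of the peripheral stalk, which holds the catalytic head still against the rotor, and lies at chr3:105942698-105960099 on the minus strand. It stood at 220, 224 and 208 TPM in WT and 167, 167 and 150.1 TPM in MU. Both groups were tight and far apart. The mean fell by 25.7%, a log2 fold change of -0.43 (95% interval -0.63 to -0.23, limma adjusted p = 0.0162). The gene overlaps Wdr77 on the opposite strand over 731 bases, and Wdr77 went from 115 to 76.3 TPM. Protein-coding genes of chromosome 3 had a median log2 fold change of -0.22, with 73.1% of them lower in MU, and after centring on its neighbours Atp5pb was at -0.31 with an adjusted p of 0.0514. Its call held under 11 of the 19 other settings and was lost, with adjusted p-values of at most 0.0751, in the rest.

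Atp5g3 (chr2:73908447-73911326, minus strand) encodes 1 of the 3 isogenes of subunit c, which differ in the targeting peptide and give the same mature ring subunit. It stood at 493, 555 and 536 TPM in WT and 435, 415 and 378 TPM in MU, with no overlap (log2 fold change -0.37, 95% interval -0.60 to -0.14, limma adjusted p = 0.0419). The call held under 7 of the 19 other settings. As a share of subunit c mRNA, Atp5g3 made up 48.2 ± 2.72% in WT and 40.8 ± 2.48% in MU (mean ± SD of 3 libraries), from 45.2 to 50.6% and from 38.0 to 42.8%. Atp5g1 took 42.7 ± 4.41% in WT and 49.6 ± 3.39% in MU, also without overlap, since its highest WT share was 46.4% and its lowest MU share 46.6%. Atp5g2 took the remaining 9.14 ± 4.07% and 9.56 ± 0.954%. The levels of Atp5g1 and Atp5g2 overlapped between groups.

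Atp5a1 (chr18:77773729-77782869, plus strand) encodes the alpha subunit of the F1 head. It stood at 820, 604 and 825 TPM in WT and 531, 515 and 513 TPM in MU. The highest MU library was below the lowest WT library, replicate 2. On the log2 scale the difference was -0.51 (95% interval -0.85 to -0.18, limma adjusted p = 0.0465). Protein-coding genes of chromosome 18 had a median log2 fold change of -0.28, with 82.5% of them lower in MU. Centred on its neighbours, Atp5a1 was at -0.20 with an adjusted p of 0.388, and its call held under 7 of the 19 other settings.

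Atp5b, the catalytic beta subunit and the partner of Atp5a1 in the F1 head, was the most abundant member of all. It stood at 2287, 2209 and 3467 TPM in WT and 3235, 3190 and 3565 TPM in MU. WT replicate 3 alone lay within the MU range. The log2 fold change was 0.36 (limma adjusted p = 0.257), and without WT replicate 3 it was 0.56 with an adjusted p of 0.0193. Atp5b passed only in that 1 of the 19 other settings. Genes around Atp5b on chromosome 10 were also higher in MU, with a median 0.25 above that of all genes. Centring on them gave Atp5b a value of 0.10. The remaining F1 genes did not pass: Atp5e, the epsilon subunit, was at 185 ± 21.5 TPM in WT against 232 ± 14.1 TPM in MU (0.33, adjusted p = 0.0842), and Atp5c1 and Atp5d had log2 fold changes of -0.09 and 0.01. None of the 5 membrane-part genes passed limma, 0 had an unadjusted p under 0.05 and 0 were called in the authors' deposited table, with values from -0.27 (Atp5k) to 0.17 (Atp5md). Of the other stalk genes, Atp5o was above WT in every MU library (0.22, adjusted p = 0.16), and Atp5j and Atp5h overlapped.

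In complex II, Sdhd and Sdhc, which together anchor the enzyme in the inner membrane and hold its heme, lay on opposite sides. Sdhd (chr9:50596357-50603812, minus strand) stood at 98.3, 126 and 120 TPM in WT and 85.1, 86.1 and 82.9 TPM in MU, with no overlap. The log2 fold change was -0.42 (95% interval -0.68 to -0.16, limma adjusted p = 0.0395), and the call held under 8 of the 19 other settings. Sdhc, the most abundant gene of complex II, stood at 159, 121 and 172 TPM in WT and 203, 197 and 183 TPM in MU. Its log2 fold change of 0.38 did not pass limma (adjusted p = 0.113) and was called higher in the authors' deposited table (0.41, adjusted p = 0.017). Genes around Sdhc on chromosome 1 were also higher in MU, with a median 0.47 above that of all genes, and centring on them turned its value to -0.09. The catalytic subunits Sdha and Sdhb overlapped between groups. Of the 4 assembly factors, Sdhaf1 and Sdhaf2 were below WT in every MU library without passing (-0.41 and -0.19), and Sdhaf3 and Sdhaf4 overlapped.

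In complex III, Uqcrfs1, the Rieske iron-sulfur protein, was the 1 gene of 12 that passed. It lies at chr13:30540308-30545362 on the minus strand and stood at 118, 107 and 122 TPM in WT and 93.4, 93.9 and 83.0 TPM in MU. No MU library reached the lowest WT library. The log2 fold change was -0.36 (95% interval -0.58 to -0.14, limma adjusted p = 0.0404), and the call held under 8 of the 19 other settings. The 8 other subunits overlapped between groups, with log2 fold changes from -0.17 (Uqcr11) to 0.11 (Uqcrq). Uqcrh, the hinge protein and the most abundant gene of the complex, was at 525 ± 55.1 TPM in WT against 516 ± 27.3 TPM in MU (-0.02, adjusted p = 0.911). The core proteins Uqcrc1 and Uqcrc2 and cytochrome c1 (Cyc1) were each within 0.03 of 0 on the log2 scale. The assembly factors Uqcc1 and Uqcc2, which act on cytochrome b, differed in sign: Uqcc1 had a log2 fold change of 0.39 (adjusted p = 0.0775) and Uqcc2 one of -0.41 (adjusted p = 0.197). Uqcc1 was above WT in every MU library and passed under 4 of the 19 other settings. Uqcc2 overlapped between groups and passed under 0. Uqcc3 was at 0.04.

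Cycs, the mobile carrier between complexes III and IV, stood at 52.0, 59.8 and 45.9 TPM in WT and 42.6, 41.7 and 27.0 TPM in MU. Every MU library was below every WT library, with MU replicate 3 lowest. The log2 fold change of -0.51 did not pass limma (95% interval -0.98 to -0.05, adjusted p = 0.119). Its testis form Cyct was listed at 0 in all libraries.

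Of the 8 matching genes under the TPM minimum, 4 were listed at 0 in every library: Cox6b2, Cox6c2, Cox8c and a further gene record with the symbol Atp5o. Cox7a1, Cox7b2 and Cox8b reached 1 TPM in at most 2 libraries. Cox4i2, the isoform of Cox4 linked to low oxygen, was at 0.299, 0.422 and 0.292 TPM in the WT libraries, while the 3 MU libraries list it at 0. Without the filter on low values it was called lower by limma. These levels are below the minimum, and a listed 0 is no proof of missing RNA.

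Summed over the nuclear subunits of a complex, MU and WT overlapped in all 4 complexes. The sums in WT and MU were 493 ± 39.2 and 497 ± 14.5 TPM for complex II, 2191 ± 203 and 2149 ± 106 TPM for complex III, 4577 ± 448 and 4636 ± 168 TPM for complex IV, and 9135 ± 1339 and 9399 ± 268 TPM for complex V (mean ± SD, n = 3 each). The ratios of the means were between 0.98 and 1.03. Without Atp5b, the ratio for complex V was 0.936 in place of 1.03, and that of all members 0.974 in place of 1.02. All 62 genes together took 1.71 ± 0.17% of TPM in WT and 1.74 ± 0.0485% in MU.

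Core subunits encoded by mtDNA are given beside their nuclear partners, as the parts that each complex joins. All 13 mRNAs encoded by mtDNA together took 8.48 to 12.3% of TPM in WT and 13.8 to 15.2% in MU. Their median log2 fold change was 0.40, so higher levels were not particular to these complexes. Summed TPM of mt-Co1, mt-Co2 and mt-Co3, the catalytic core of complex IV, was 40908 ± 6953 in WT against 58018 ± 3998 in MU, without overlap. For mt-Atp6 and mt-Atp8, the membrane subunits of complex V, the sum was 13289 ± 2920 in WT against 22669 ± 1010 in MU, without overlap. The level of mt-Cytb, of complex III, was 8012 ± 1416 and 10119 ± 577 TPM, and the groups overlapped. Singly, mt-Atp6 rose by 0.79 on the log2 scale (limma adjusted p = 0.0428). Of the others, mt-Atp8 (0.76, adjusted p = 0.15), mt-Co1 (0.66, adjusted p = 0.0524), mt-Co2 (0.55, adjusted p = 0.12), mt-Cytb (0.35, adjusted p = 0.226) and mt-Co3 (0.33, adjusted p = 0.339) did not pass. The ratio of mtDNA to nuclear subunit TPM, which no scaling factor of a library changes, was 1.52, 1.28 and 1.55 in WT and 2.47, 2.55 and 2.23 in MU for complex V. For complex IV it was 10.9, 6.82 and 9.36 in WT and 13.4, 13.1 and 11.1 in MU. For complex III it was 3.71 ± 0.942 in WT against 4.71 ± 0.244 in MU, with overlap. WT replicate 2 had the lowest ratio in all 3 complexes.

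**Figure D3:**
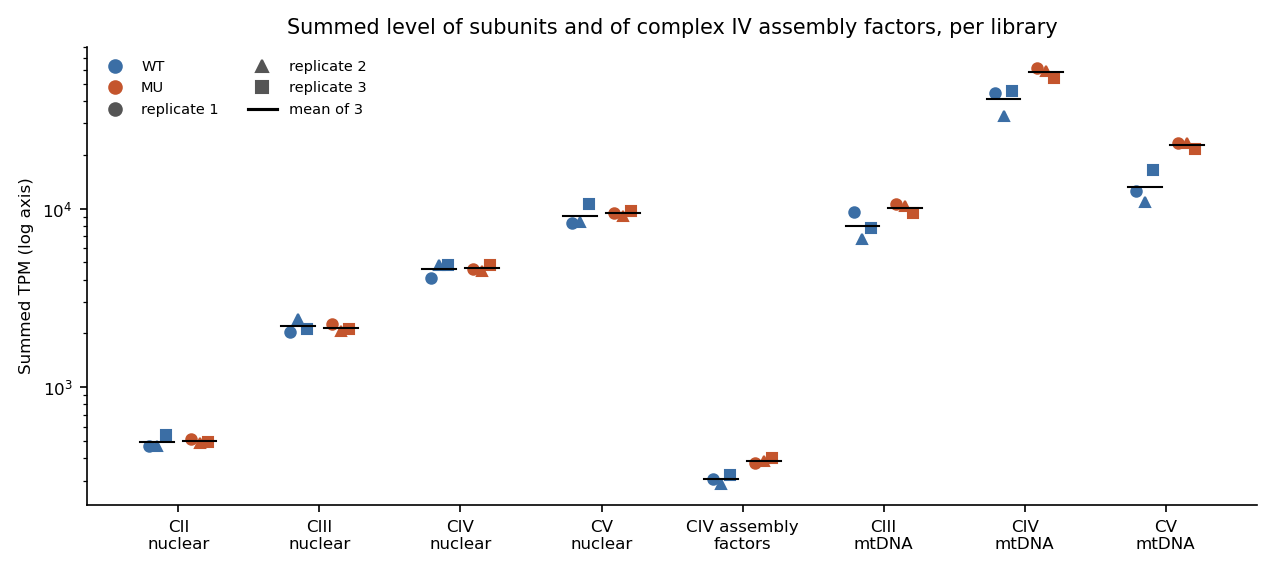
Summed TPM per library (log axis) of nuclear subunits, complex IV assembly factors and mtDNA-encoded subunits; circle, triangle and square are replicates 1, 2 and 3, and lines are means of 3. The nuclear sums overlap between WT and MU in every complex, while the complex IV assembly factors and the mtDNA sums of complexes IV and V are higher in all 3 MU libraries.

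Spread within WT limited what could be told apart. The range of the 3 WT libraries exceeded that of the 3 MU libraries in 51 of 62 members, or 82.3%, against 71.8% of all tested genes. The median range was 0.45 on the log2 scale in WT and 0.20 in MU, against 0.41 and 0.23 over all genes. In 36 members, or 58.1%, WT replicates 2 and 3 were the 2 extremes of WT, against 46.5% of all genes. The widest was Uqcr11, a small subunit of complex III, at 138, 327 and 91.3 TPM in WT and 151, 138 and 138 TPM in MU. Cox6a2, Atp5k, Atp5g2, Cox8a and Uqcrb also spanned over 1 on the log2 scale in WT, and no member did in MU. These 6 genes are 9.68% of the members, against 11.7% of all tested genes. Across members, the difference between WT replicates 2 and 3 had a Spearman correlation of 0.26 with GC content and -0.35 with exon length, against 0.43 and -0.12 across all tested genes. These are descriptions over genes of the same 2 libraries, and the part of GC content or length in the spread was not tested.

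**Figure D4:**
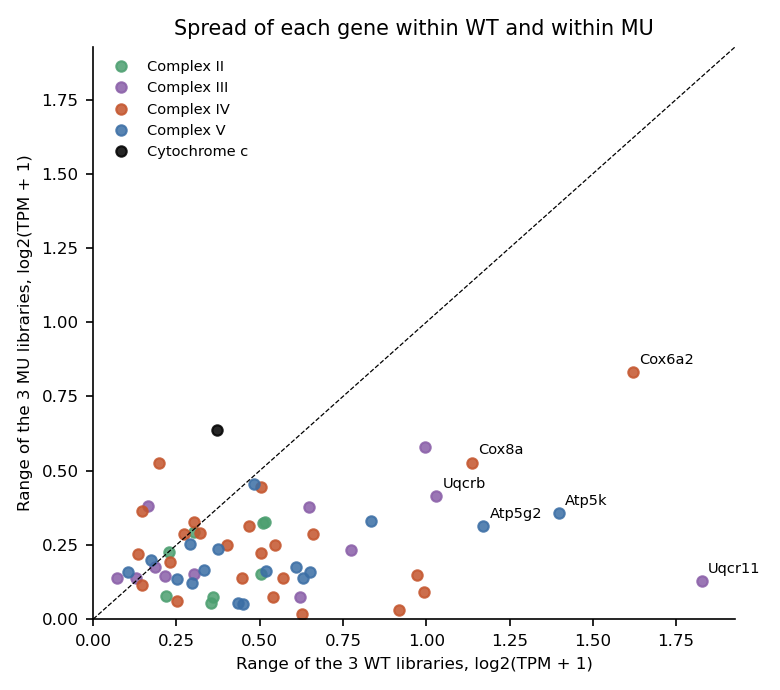
Range of the 3 WT libraries (x axis) and of the 3 MU libraries (y axis) of each of the 62 genes, on the log2(TPM + 1) scale, coloured by complex; the dashed line marks equal ranges. Most genes lie below the line, and the 6 labelled genes span more than 1 in WT.

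Further assembly factors and subunits outside the symbol rule were examined from a list. Of 23 tested, 1 rose and 3 fell, with a median log2 fold change of -0.16 beside -0.05 over all genes. Of all genes, 7.12% rose and 11.6% fell. Apopt1, a complex IV assembly factor of mitochondria, rose from 30.0 ± 3.21 to 45.3 ± 3.99 TPM (0.58, limma adjusted p = 0.0165). Higd1a, a hypoxia-induced protein that binds complex IV, fell from 68.4 ± 3.98 to 38.1 ± 5.21 TPM (-0.84, adjusted p = 0.00562). The complex IV assembly factors Cmc2 and Coa7 fell from 35.7 ± 2.60 to 25.5 ± 1.06 TPM (-0.47, adjusted p = 0.0169) and from 19.3 ± 2.02 to 13.0 ± 1.09 TPM (-0.53, adjusted p = 0.024). Complex IV assembly genes therefore passed in both directions, inside and outside the symbol rule.

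Transcriptional regulators of respiratory chain genes were listed in the same way, and of 15 tested none rose and 3 fell by limma (median -0.11), beside 7.12 and 11.6% of all genes. At an unadjusted p under 0.05, 0 were higher and 4 lower, and the authors' deposited table called 0 higher and 3 lower (Gabpb2, Pprc1 and, outside the naming rule, Ppargc1b). Pprc1, a coactivator of the PGC-1 family, fell from 70.1 ± 1.41 to 49.7 ± 2.82 TPM (-0.49, limma adjusted p = 0.00915). Hcfc1, a cofactor of GABP and other activators, fell from 49.1 ± 2.55 to 39.2 ± 0.958 TPM (-0.32, adjusted p = 0.0379). Gabpb2, a partner subunit of the DNA-binding protein GABPA, fell from 23.4 ± 1.97 to 18.1 ± 0.15 TPM (-0.35, adjusted p = 0.0475). At the level of mRNA, Nrf1 and Gabpa, chosen after their values were seen, had log2 fold changes of 0.04 and -0.11.

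In the authors' deposited table of fold changes, 11 of the 62 members were called at an adjusted p under 0.05, or 17.7%, against 21.1% of all genes with an adjusted p there. By direction, 7 were higher (Cox16, Cox17, Cox18, Cox20, Cox7a2l, Sdhc and Uqcc1; background 9.42%) and 4 lower (Atp5a1, Atp5pb, Sdhd and Uqcrfs1; background 11.6%). Of these, 6 were also called by limma, all in the same direction, and the sign of the log2 fold change was shared for 56 of 62 members. Both analyses rest on the same 6 libraries. Of the genes called by limma, Atp5g3 and Cox11 were missing from the calls in the authors' deposited table (adjusted p 0.0539 and 0.0841).

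**Figure D5:**
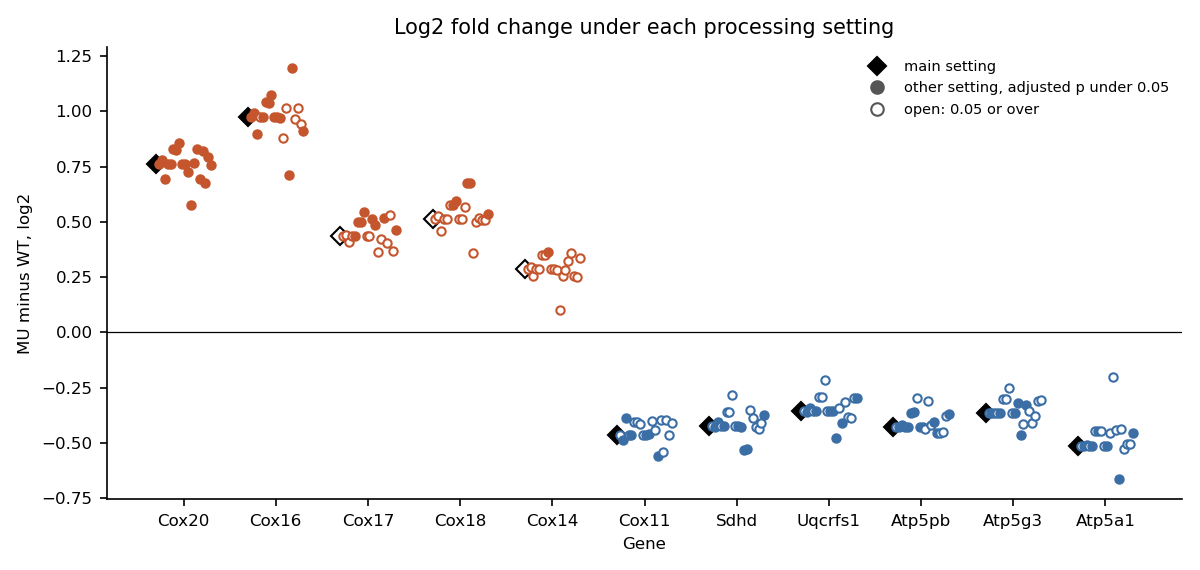
Log2 fold change (y axis, MU minus WT) of 11 genes in the setting of the report (diamond) and under 19 others (circles), filled where the adjusted p was under 0.05. All values of these genes keep their sign, and Cox20 is the gene whose symbols are all filled.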

How the data were processed

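The expression table holds log2 values that the authors deposited for each gene in each library, and the numbers show them to be log2(TPM + 1). A further deposited table gives, per the file headers, the authors' log2 fold change with its p-value (raw and adjusted) and group mean TPM. The submitters' processing notes name build mm10 with HISAT2 (2.05.0), DESeq2 (1.20.0), FastQC (0.11.4) and featureCounts (1.5.0-p3), without roles; strand setting and annotation: not given in the sources used here. Every column was matched to a labelled library.

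Values were tested as log2(TPM + 1), a scale that understates changes of low genes, over the 14209 genes with at least 1 TPM in 3 or more of 6 libraries, with limma 3.58.1 in R 4.3.3 (intensity trend, two-sided, no covariate, Benjamini-Hochberg over all of them). The script was tested on simulated data. Calls are at an adjusted p under 0.05. TPM keeps no depth, so no counting interval was computed. Positions, GC content and overlaps came from GENCODE M21, by identifier for 55141 of 55401 genes. Promoters came from RefSeq (GRCm38.p6) and matched 50 of 62 members; a sequence is printed only where it ends before the start site.

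Members and lists were chosen with earlier results of these data known. Genes are named by this rule: every member that passes; in each complex the most abundant member and the largest rise and fall; all isoform families; the mtDNA-encoded genes; and, from the 2 further lists, those that pass and the 2 with the smallest adjusted p. Other members, and Nrf1, Gabpa and Ppargc1b, are given after their values were seen, the members to account for every gene of a complex. The alternatives tried were the replicate number as a block, a pseudocount of 0.1 or 5, no filter, a minimum of 5 TPM, 3 other scalings, limma without trend or robust, a loess correction for GC content and length (span 0.3), centring on 20 neighbours a side, leaving out each library, and the authors' deposited calls.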

Additional observations from a re-analysis of the deposited data

How the results depend on the processing

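None of the 8 called members changed direction in any of the 19 alternatives. Cox20 passed in 19, Cox16 in 13, Atp5pb in 11, Sdhd and Uqcrfs1 in 8, Atp5a1 and Atp5g3 in 7 and Cox11 in 6. The number of members called higher (2) and lower (6) was 2 and 0 with a replicate block, 1 and 2 without a filter (Atp5pb and Cox4i2, which is outside the 62), 3 and 1 with TPM rescaled without mtDNA genes, 5 and 2 under median-of-ratios scaling, 8 and 0 under quantile normalization, 2 and 1 without an intensity trend, 5 and 5 with GC and length correction, 3 and 3 with position centring, and 7 and 4 in the authors' deposited table. Leaving out 1 library gave 1 to 6 higher and 0 to 6 lower: 2 and 1 without WT replicate 1, 3 and 6 without WT replicate 2, 6 and 1 without WT replicate 3, and 1 and 0 without any 1 MU library, with fewer samples tested. Other causes were not tested. Over all genes, 7.69% passed with the block and 6.1% without a filter, where 30959 genes were tested. The replicate numbers did not pair the libraries: same-numbered deviations correlated at 0.05, 0.02 and -0.07, and not every library correlated best with its own number.

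The median log2 fold change of members (-0.02) was 0.0418 when rescaled, 0.0422 under median-of-ratios and 0.0865 under quantile normalization, and -0.05 to 0.04 without 1 library. Members that changed sign had not passed, and did not pass there. Sco1 was 0.0298 when rescaled, 0.0301 under median-of-ratios, 0.0200 with GC correction, -0.0988 to 0.0272 without 1 library and 0.0184 in the authors' deposited table. Uqcrh was 0.0426 when rescaled, 0.043 under median-of-ratios, 0.0741 under quantile normalization, 0.096 with position centring, -0.104 to 0.0472 without 1 library (0.013 without MU replicate 3) and 0.0244 in the authors' deposited table. Under quantile normalization Cox6b1 was 0.0671 and Cox7a2 was 0.03. Position centring turned Atp5g2 to -0.157, Cox4i1 to 0.19, Cox7b to 0.163 and Sdhc to -0.0892. Without 1 library, the range was -0.344 to 0.153 for Cox6b1, -0.276 to 0.0543 for Cox7a2, -0.287 to 0.299 for Atp5g2 (-0.0547 without MU replicate 1), -0.0512 to 0.209 for Atp5g1, -0.133 to 0.436 for Cox8a (-0.0417 without MU replicate 3), and -0.574 to 0.339 for Uqcr11.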
